A study of Homo sapiens with 6 samples.

Results

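ABC transporters are a family of membrane pumps that use ATP to move drugs, drug conjugates, lipids, bile salts, haem precursors and other molecules across membranes. The genes were taken by name, as symbols ABCA to ABCG followed by a number, which gave 43 genes from 49 transcript clusters among 22465 genes with 1 annotated symbol. A transcript cluster is the array's set of probes for 1 gene, and the brightest cluster stood for a gene with several. Of the 43 genes, 26 had a log2 signal over 4 on at least 3 of the 6 arrays and were tested, and 17 did not and were not. ABCC13 is a transcribed pseudogene in the RefSeq gene list of assembly GRCh38.p14.

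Total RNA from A549, an established line from a human lung adenocarcinoma, was hybridised to Affymetrix arrays that cover whole transcripts. In 3 samples the cells had received 2 pooled siRNAs directed at CONCR, a long noncoding RNA, and in 3 a control siRNA, each at 40 nM in a pair of lipid transfections 24 h apart. All 6 samples were of this 1 line, grown in RPMI medium with 10% fetal calf serum, and the labels give no difference in genotype. The series calls the knockdowns independent without saying that cultures were grown separately, so a p-value here reflects only how far these samples scatter, and that scatter may be technical.

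The family is sorted by sequence into subfamilies A to G. Members of subfamilies A and G are best known for moving cholesterol, phospholipids and other lipids, while ABCB1, several ABCC members and ABCG2 are known for pushing drugs and their glutathione or glucuronide conjugates out of cells. Other members sit in the membranes of mitochondria, peroxisomes or lysosomes. Subfamilies E and F have lost the membrane spans and act on ribosomes and translation. In lung, ABCA3 loads surfactant lipid into the lamellar bodies of alveolar type II cells.

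The targeted RNA, CONCR (symbol DDX11-AS1), had log2 signals of 4.23, 4.49 and 4.64 with CONCR siRNA and 4.71, 4.71 and 4.64 with control siRNA, a difference of -0.23 that missed the threshold (adjusted p = 0.42 in limma), so these arrays do not check the labels. Arrays resembled each other closely, with correlations between arrays of 0.989 to 0.993 inside the groups and of 0.987 to 0.991 across them. The epithelial keratins KRT8 and KRT18 had mean log2 signals of 11.27 and 11.59, while the epithelial adhesion gene EPCAM was under the signal minimum on every array, with a mean of 2.78. Over all transcript clusters tested, limma called 1.88%, 12.7% had an unadjusted p under 0.05, and 19.1% had groups that did not overlap. Of 8 epithelial and A549 markers tested, limma called 0, and 3 had an unadjusted p under 0.05. All 3 were lower with CONCR siRNA and without overlap of the groups: CDH1 at -0.22, AKR1C1 at -0.22 and AKR1B10 at -0.19. The other tested markers of this list were slightly positive with overlapping groups. They were KRT8 at 0.07, KRT7 at 0.05, NQO1 at 0.04, KRT18 at 0.03 and KRT19 at 0.02. The median log2 change of the 8 was 0.02. Of 7 alveolar and airway markers, 0 were called and 1, the mucin MUC5AC at -0.29, was under that unadjusted p. The surfactant gene SFTPC and the lung lineage factor NKX2-1 had mean signals of 4.69 and 4.96. Among markers of other cell types, CD68 rose (log2 change 0.50) as 1 of 2 leukocyte markers tested. ESAM rose (0.41) as 1 of 3 endothelial markers and TTR rose (0.52) as 1 of 3 hepatocyte markers. Limma adjusted p for CD68, ESAM and TTR were 0.012, 0.030 and 0.013. The hepatocyte marker SERPINA1 went the other way, at -0.16 without overlap of the groups. It was not called (limma adjusted p = 0.385, unadjusted p = 0.0474). None of 4 fibroblast markers was called (0 also at an unadjusted p under 0.05). Under the signal minimum on all 6 arrays were 3 of 6 leukocyte markers found (PTPRC, CD3E, LYZ), 3 of 6 endothelial (PECAM1, KDR, TEK), 2 of 5 hepatocyte (ALB, CYP3A4) and 2 of 6 fibroblast ones (DCN, LUM). Over it on all 6 arrays, besides the markers that rose, were ITGAM, CDH5, VWF, APOA2, SERPINA1, COL1A1, COL1A2, PDGFRB and THY1, with mean signals from 4.22 (CDH5) to 6.44 (SERPINA1), and CD14 was over it on 2. The mean log2 signal of the leukocyte markers found was 4.26 to 4.28 on the CONCR siRNA arrays and 4.13 to 4.21 on the control arrays, that of the endothelial ones 3.89 to 3.98 against 3.74 to 3.94, that of the hepatocyte ones 4.18 to 4.24 against 4.11 to 4.19, and that of the fibroblast ones 3.78 to 3.88 against 3.76 to 3.86. These means include CD68, ESAM and TTR, the markers that rose, and are not separate from their changes. The part of these cell types in the results below was not tested.

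Among the ABC transporters tested, ABCA1 rose and ABCC3 fell after CONCR siRNA. ABCA1, the pump that hands cellular cholesterol and phospholipid to apolipoprotein A-I at the start of HDL formation, was higher by 0.44 log2 units. ABCC3, known as MRP3, which carries glucuronide conjugates and bile salts out across the basolateral membrane, was lower by 0.46. The other 24 genes were not called. The 2 calls are 7.69% of 26 genes, beside 1.88% of all 32540 transcript clusters tested (0.384% higher and 1.5% lower) and 2.61% of 15513 tested genes with 1 symbol. That share rests on 2 genes. At an unadjusted p under 0.05 there were 5 of 26 genes (19.2%), 3 higher and 2 lower, beside 12.7% of all clusters. For 6 of 26 genes the groups' signals did not overlap (23.1%), beside 19.1% of all clusters. In these bulk samples a change in RNA per cell and a change in the mix of cells cannot be told apart. The median log2 change of the 26 genes was 0.01, the same as over all clusters to 2 decimals, and their median absolute change was 0.03 against 0.07.

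**Figure D1:**
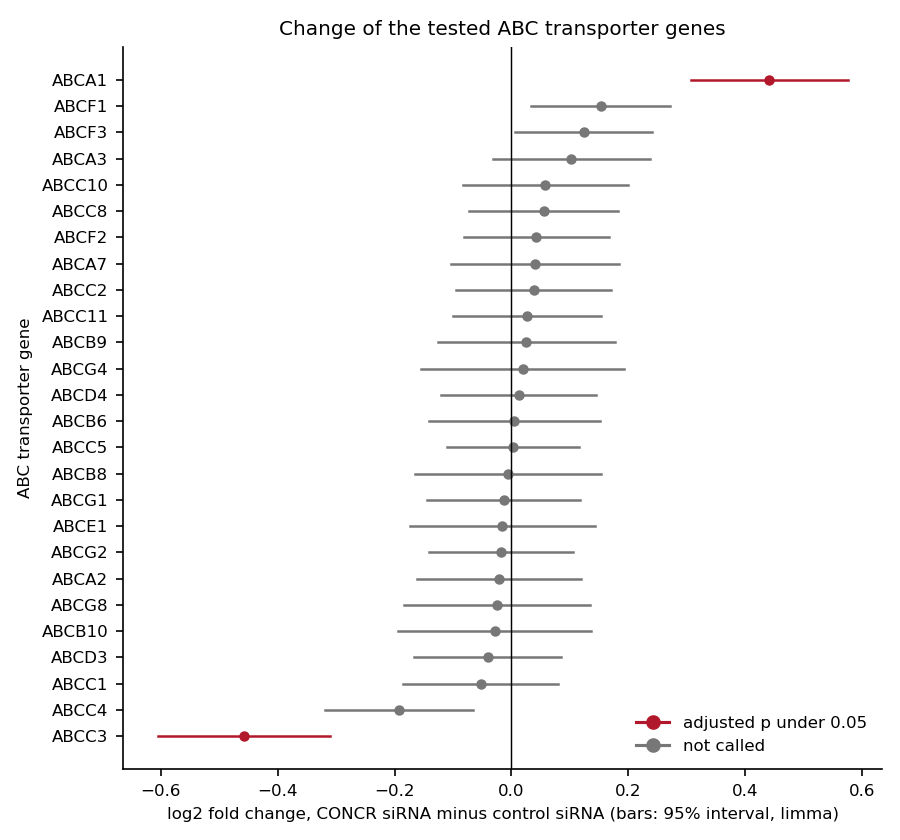
Log2 fold change (CONCR siRNA minus control siRNA, x axis) of the 26 tested ABC transporter genes (y axis), with 95% intervals from limma, 3 arrays per group. ABCA1 at 0.44 and ABCC3 at -0.46 (red) stand at the ends, and the intervals of the other genes reach across 0 except for ABCC4, ABCF1 and ABCF3.

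ABCA1 had log2 signals of 5.36, 5.29 and 5.29 on the CONCR siRNA arrays and 4.80, 4.91 and 4.91 on the control arrays. Every CONCR siRNA array lay above every control array. The group means were 5.31 ± 0.04 and 4.87 ± 0.06 (SD, n = 3 each), a rise of 0.44 (SE 0.06, 95% interval 0.31 to 0.58, 1.36-fold, limma adjusted p = 0.016). The call was kept without control siRNA replicate 1 (change 0.40, adjusted p = 0.039) and lost without any other single array, with adjusted p of 0.061 to 0.076 in limma and a change of 0.42 to 0.46. It was also lost with no signal filter (0.056) and with an unmoderated statistic (0.060). An exact permutation test of this gene alone, two-sided, gave p = 0.1, the smallest that 3 arrays against 3 allow.

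No region around the start was matched for ABCC3, the other gene called, so none is shown for it. The region around the annotated start of ABCA1 is shown because this gene was called. That region is also well studied for control by the oxysterol receptor LXR. It runs from 250 bases before to 50 after the start, lies at chr9:104928106-104928405 on the minus strand of GRCh38.p14 (RefSeq), and is printed 5′ to 3′. Capitals mark matches to the motifs searched.
ABCA1: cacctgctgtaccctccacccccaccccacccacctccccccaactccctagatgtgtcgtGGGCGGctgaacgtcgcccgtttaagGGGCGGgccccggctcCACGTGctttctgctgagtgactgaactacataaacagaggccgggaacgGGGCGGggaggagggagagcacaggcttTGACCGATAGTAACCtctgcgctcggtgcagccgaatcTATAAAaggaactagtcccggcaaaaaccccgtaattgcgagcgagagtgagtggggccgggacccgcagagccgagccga

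The motifs were searched on both strands by their letters. They were the GC box GGGCGG, the CCAAT box, the TATA box TATAAA, the E-box CACGTG, the core of the antioxidant response element TGACNNNGC, an E2F site TTTCCCGC and a loose form of the direct repeat that LXR with RXR binds, GGTNNNNNNNGGTCA. In ABCA1 no match overlapped another. There the GC box was found 3 times, at -189, -163 and -97 counted from the start, and the E-box at -147. The direct repeat was found on the opposite strand at -69 and the TATA box at -31. Of 35116 RefSeq promoters of the same length, 45% held a GC box, 34.6% a CCAAT box, 11.5% a TATA box, 7.26% this E-box, 13.3% the antioxidant core, 1.63% the E2F site and 0.812% the direct repeat. Such a region was matched for 34 of the 43 genes, 22 tested and 12 under the signal minimum. None was matched for ABCA4, ABCA8, ABCB4, ABCB5, ABCC1, ABCC3, ABCC8, ABCC13 and ABCG1, and these genes were not searched. The direct repeat was in 1 of the 34 genes searched, ABCA1. The form searched was loose and the ABCA1 region was already known for LXR, so this match is not a separate finding. The antioxidant core was in 6 of 22 tested and 1 of 12 untested genes, and the GC box in 15 of 22 and 3 of 12. The median GC content was 65.5% (40.3 to 79.7%) over the tested and 48.5% (25 to 76.3%) over the untested genes, against 58.7% over all promoters. The set of all promoters was not divided by signal. Whether the contrasts between tested and untested genes are particular to this family was not tested. The motif matches are descriptions of letters and show no binding.

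ABCC3 had log2 signals of 8.12, 8.06 and 8.17 with CONCR siRNA and 8.57, 8.65 and 8.50 with control siRNA. Every CONCR siRNA array lay below every control array. The group means were 8.12 ± 0.06 and 8.57 ± 0.08 (SD, n = 3 each), and ABCC3 fell by 0.46 (SE 0.06, 95% interval -0.61 to -0.31, 1.37-fold lower, limma adjusted p = 0.019). The call was lost whichever single array was left out, with adjusted p between 0.055 (without control siRNA replicate 3) and 0.096 (without CONCR siRNA replicate 2) in limma and a change between -0.50 and -0.42. It was lost as well with no signal filter (0.061) and with an unmoderated statistic (0.078). Two-sided exact permutation of ABCC3 alone gave p = 0.1, again the smallest possible.

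**Figure D2:**
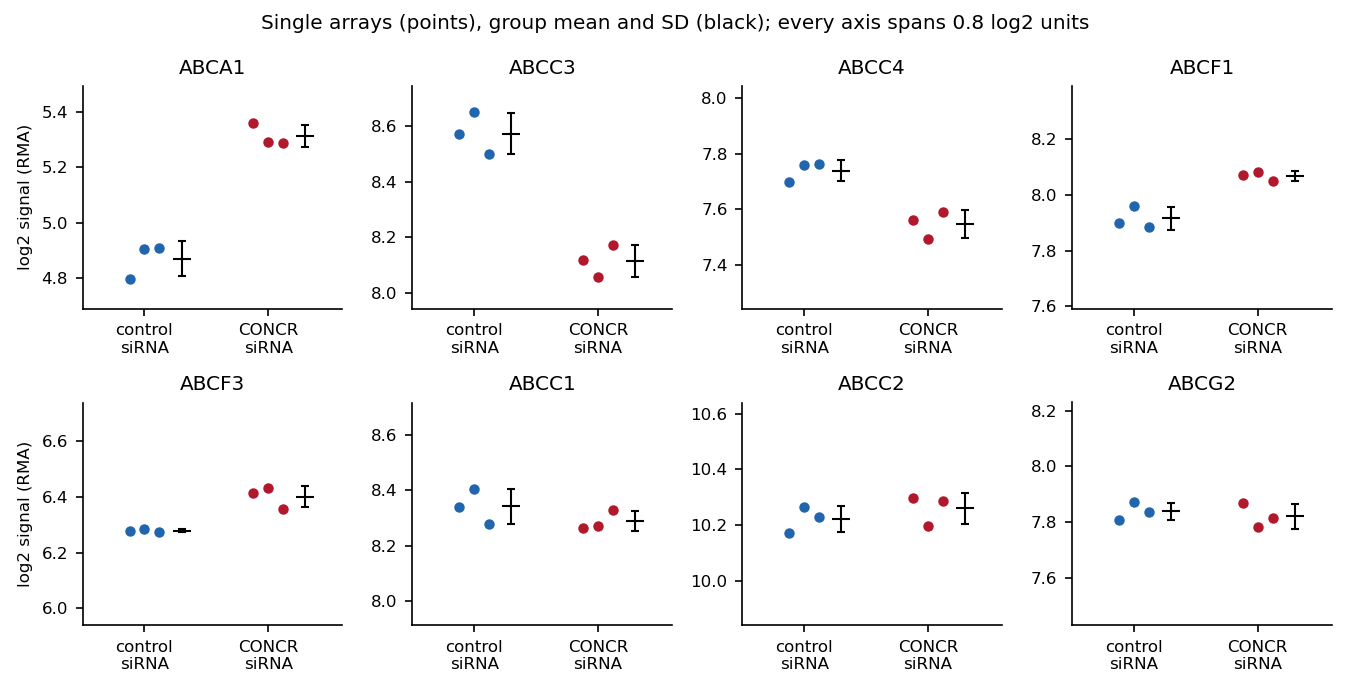
Log2 signal (y axis) of 8 ABC transporter genes on the single arrays (points, 3 per group) with group means and SD in black; every axis spans 0.8 log2 units. The groups are apart for ABCA1, ABCC3, ABCC4, ABCF1 and ABCF3 and overlap for ABCC1, ABCC2 and ABCG2.

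The drug and conjugate pumps were well represented. Of 10 genes with this role, 8 were tested, 1 (ABCC3) fell and none rose, beside 1.5% lower among all clusters, and the median log2 change was -0.01. ABCC4, known as MRP4, which exports cyclic nucleotides and prostaglandins besides drugs, had log2 signals of 7.56, 7.49 and 7.59 with CONCR siRNA and, in the controls, 7.70, 7.76 and 7.76. The groups did not overlap, yet its change of -0.19 (SE 0.05, 95% interval -0.32 to -0.07) was not called (limma adjusted p = 0.18, unadjusted p = 0.0091). Among the alternatives run, ABCC4 passed only where the signal minimum was raised to 6 (adjusted p = 0.048).

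ABCC1, or MRP1, the widely expressed exporter of glutathione conjugates, had log2 signals of 8.26, 8.27 and 8.33 against 8.34, 8.40 and 8.28 in the controls. Its change was -0.05 (SE 0.06, 95% interval -0.19 to 0.08), and the groups overlapped. ABCC2, or MRP2, the apical exporter of bilirubin glucuronides, had signals of 10.30, 10.19 and 10.28 against 10.17, 10.26 and 10.23, a change of 0.04 (SE 0.06, 95% interval -0.09 to 0.17). ABCG2, the breast cancer resistance protein, which exports urate and many drugs, had signals of 7.87, 7.78 and 7.81 against 7.81, 7.87 and 7.83, a change of -0.02 (SE 0.05, 95% interval -0.14 to 0.11). All of these have groups that overlap and limma adjusted p of 0.79 to 0.94.

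The remaining tested pumps of this role were not called. ABCC5, a pump of cyclic nucleotides, was at 0.00 on the log2 scale (SE 0.05, 95% interval -0.11 to 0.11). ABCC10 had signals of 5.30, 5.44 and 5.34 against 5.33, 5.31 and 5.26 (0.06, SE 0.06). ABCC11, the pump behind the human earwax trait, was at 0.03 (SE 0.05) and was, with a mean signal of 4.07, among the members just inside the signal minimum, as was ABCG8 at 4.15. Just outside it were ABCG5 at 3.71 and ABCC12 at 3.54.

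ABCB1, the P-glycoprotein of multidrug resistance, was under the signal minimum on every array and was not tested. Its log2 signals were 3.54, 3.52 and 3.50 with CONCR siRNA and 3.37, 3.37 and 3.32 with control siRNA, so the groups did not overlap at a signal too dim for the filter. In a fit without the filter its change was 0.16 (SE 0.06, limma adjusted p = 0.48). ABCB4, the phosphatidylcholine pump of bile, is its neighbour on chromosome 7 and had a mean signal of 2.60.

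The lipid pumps other than ABCA1 gave no call. Of 12 genes for cholesterol, phospholipids, retinoids and bile salts, 7 were tested, 1 (ABCA1) rose and none fell, beside 0.384% higher among all clusters, with a median log2 change of 0.02. ABCG1, which moves cholesterol to HDL particles and is known, with ABCA1, as a target of LXR, had signals of 4.37, 4.42 and 4.40 with CONCR siRNA and, in the controls, 4.48, 4.39 and 4.35. Its change was -0.01 (SE 0.06, 95% interval -0.14 to 0.12), and the groups overlapped. Whether ABCA1 and ABCG1 differed in their change was not tested.

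ABCA3, the surfactant lipid pump, had signals of 6.50, 6.49 and 6.42 against 6.40, 6.41 and 6.30 in the controls, with every CONCR siRNA array above every control array. Its change of 0.10 (SE 0.06, 95% interval -0.03 to 0.24) was not called (limma adjusted p = 0.55). ABCA2, of endosomal lipid handling, was at -0.02 (SE 0.06), ABCA7, a phospholipid pump linked to Alzheimer disease, at 0.04 (SE 0.06), ABCG4 at 0.02 (SE 0.07) and ABCG8, which with ABCG5 forms the plant sterol pump, at -0.02 (SE 0.07). The retinal pump ABCA4, the skin lipid pump ABCA12, ABCB4, the bile salt pump ABCB11 and ABCG5 were under the signal minimum.

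**Figure D3:**
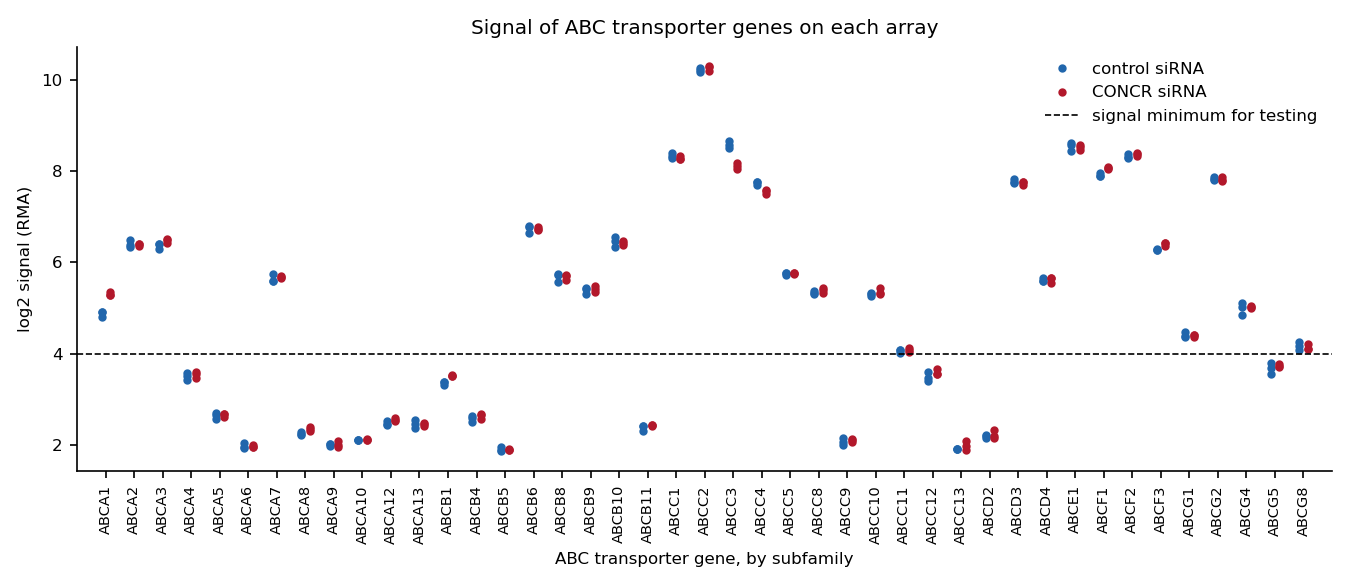
Log2 signal (y axis) of 43 ABC transporter genes (x axis, by subfamily) on each of the 6 arrays, control siRNA in blue and CONCR siRNA in red, with the minimum of 4 as a dashed line. The 26 tested genes lie above it on all 6 arrays and the other 17 lie below it on all 6; signals of different genes come from different probes and have no common scale.

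The 26 tested genes exceeded the minimum on all 6 arrays and the 17 others on none, so no gene entered the test through 1 group. The signals of those 17 ran from 1.86 to 3.78. Of them, ABCA8 besides ABCB1 had groups that did not overlap, at 2.30, 2.35 and 2.39 with CONCR siRNA against 2.21, 2.27 and 2.24. These are 2 of 17 genes, beside 19.1% of all tested clusters. No share was computed for clusters under the minimum. Position was shared among some of the 17: ABCA8, ABCA9, ABCA6, ABCA10 and ABCA5 follow one another among the protein-coding genes of chromosome 17 in the RefSeq list, and all 5 were under the minimum. The role of most of them is less settled. ABCA13, which is related, was under it too, with a mean of 2.45. ABCB5, ABCC9, ABCC13 and ABCD2 complete the list.

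Of the mitochondrial members, ABCB6, of porphyrin transport, was at a log2 change of 0.01 (SE 0.06, 95% interval -0.14 to 0.15), ABCB8 at -0.01 (SE 0.07) and ABCB10, which supports haem synthesis, at -0.03 (SE 0.07). Among the peroxisomal and lysosomal members, ABCD3, which imports branched fatty acids and bile acid precursors into peroxisomes, was at -0.04 (SE 0.05), ABCD4, of lysosomal cobalamin release, at 0.01 (SE 0.06) and the lysosomal peptide pump ABCB9 at 0.02 (SE 0.06). None of these 6 genes was called, and none had an unadjusted p under 0.05 in limma. ABCC8, the sulphonylurea receptor of the beta cell potassium channel, had signals of 5.34, 5.40 and 5.43 against 5.38, 5.33 and 5.30 (0.05, SE 0.05).

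The ABC proteins of translation gave positive changes for ABCF members without a call. ABCF1, a partner of the initiation factor eIF2, had log2 signals of 8.07, 8.08 and 8.05 with CONCR siRNA and 7.90, 7.96 and 7.89 with control siRNA. The groups did not overlap, and the change was 0.15 (SE 0.05, 95% interval 0.03 to 0.27, limma adjusted p = 0.25). Its 6 further clusters, all on alternate haplotypes of chromosome 6 and all with the same values, gave 0.16. ABCF3 had signals of 6.41, 6.43 and 6.36 against 6.28, 6.28 and 6.27, again without overlap, and a change of 0.12 (SE 0.05, 95% interval 0.01 to 0.24, adjusted p = 0.36 in limma). ABCF2 was at 0.04 (SE 0.05). ABCE1, which splits ribosomes after termination, had a change of -0.02 (SE 0.07, 95% interval -0.17 to 0.14). Of these 4 genes, 2 had an unadjusted p under 0.05, both higher, beside 12.7% of all clusters in either direction, and 4 genes are too few to set a share against that.

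Over the 21 tested members with an unadjusted p of 0.05 or more, changes ran from -0.05 to 0.10 on the log2 scale, with SE of 0.05 to 0.07 and limma adjusted p of 0.55 to 0.99. Their 95% intervals stayed between -0.19 and 0.24.

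**Figure D4:**
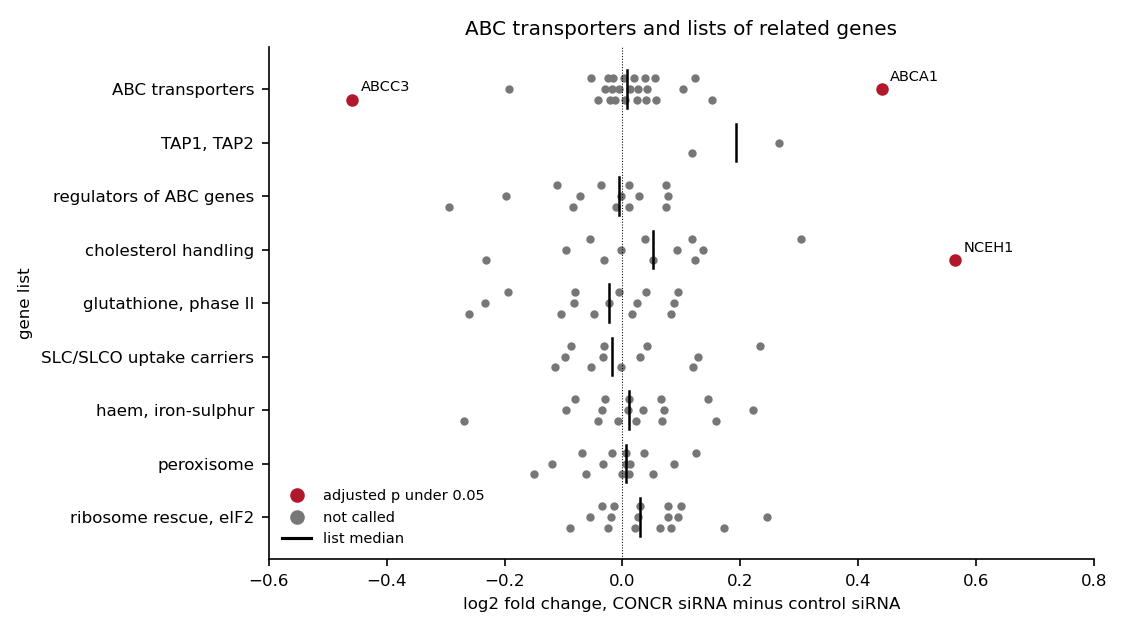
Log2 fold change (x axis) of the 26 tested ABC transporter genes and of tested genes in 8 related lists (y axis); each point is 1 gene, red where the adjusted p is under 0.05, and black lines are medians. ABCA1 and NCEH1 are the red points on the right and ABCC3 the one on the left.

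Genes that work with the transporters were read from the same fit. In the list of cholesterol efflux partners and LXR targets, 13 of 18 genes were tested, 1 rose and 12 were not called, beside 1.88% called among all clusters. NCEH1, which releases cholesterol from its esters, had signals of 7.25, 7.21 and 7.21 with CONCR siRNA and, in the controls, 6.64, 6.72 and 6.61, a rise of 0.56 (SE 0.05, limma adjusted p = 0.0066). NPC1, which moves cholesterol out of lysosomes, was at 0.30 (SE 0.06, limma adjusted p = 0.068). SOAT1, which makes cholesterol esters, was at -0.23 (SE 0.05, limma adjusted p = 0.098). Both were without overlap of the groups. With NCEH1 these made 2 higher and 1 lower at an unadjusted p under 0.05, beside 12.7% of all clusters in either direction. SCARB1 at 0.12, LPCAT3 at 0.14 and LIPA at -0.10 also had groups that did not overlap, as did 19.1% of all clusters. The sterol regulators SREBF1 and SREBF2 were at 0.00 and 0.01, and LXR alpha, NR1H3, at 0.03 (SE 0.05).

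Among 14 tested of 17 regulators of ABC genes, limma called 0. Of these 14, 2 had an unadjusted p under 0.05, both lower, beside 12.7% of all clusters in either direction. NFE2L2, which encodes NRF2, the oxidative stress factor known to drive several ABCC genes, had signals of 8.27, 8.14 and 8.27 with CONCR siRNA and, in the controls, 8.45, 8.62 and 8.49. Its change was -0.29 (SE 0.07, limma adjusted p = 0.11), and KEAP1, which marks NRF2 for degradation and is mutated in A549 cells, was at -0.20 (SE 0.07, adjusted p = 0.28). Of 21 glutathione and conjugating enzymes, 15 were tested, 0 were called by limma and 3 had an unadjusted p under 0.05, all lower, beside 12.7% of all clusters in either direction. They were GCLC at -0.26 (SE 0.05, adjusted p = 0.054), GCLM at -0.23 (SE 0.06, adjusted p = 0.17) and the microsomal transferase MGST1 at -0.19 (SE 0.06, adjusted p = 0.20), all by limma. GCLC and GCLM form the enzyme that starts glutathione synthesis. NQO1, known as a target of NRF2, was at 0.04 with overlapping groups. GSS, GSTO1 and MGST2 were at 0.09, 0.08 and 0.09, and GSR, GSTM1 and GSTP1 at -0.10, -0.08 and -0.08. All of these but NQO1 and GSS had groups that did not overlap, as did 19.1% of all clusters. The median log2 change of the 15 enzymes was -0.02.

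The other lists held no call by limma. Their counts at an unadjusted p under 0.05 stand beside 12.7% of all clusters in either direction. Of 23 SLC and SLCO uptake carriers 12 were tested, and the ergothioneine carrier SLC22A4 was at 0.23 (SE 0.05, adjusted p = 0.093), the 1 gene there with an unadjusted p under 0.05. Of 17 tested haem and iron-sulphur genes, ALAS1, which starts haem synthesis, was at 0.22 and UROD at -0.27, the 2 with an unadjusted p under 0.05. Of 15 tested peroxisome genes, PEX14 was at -0.15 and LMBRD1, the partner of ABCD4, at 0.13, again the 2 under that unadjusted p. Of 17 tested ribosome rescue and eIF2 genes, EIF2AK4 at 0.25 and EIF2B4 at 0.17 were under it, both higher. TAP1 is an ABC gene with another name that supplies peptides for MHC class I. It had signals of 5.58, 5.56 and 5.39 against 5.28, 5.33 and 5.11, a change of 0.27 (SE 0.08, limma adjusted p = 0.22). Its partner TAP2 was at 0.12 (SE 0.07). CFTR, the chloride channel of the family, was under the signal minimum.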

How the data were processed

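Expression was measured in 6 samples of A549 cells, 3 per group, from 300 ng of total RNA. The deposited values are log2 signals made by the authors with RMA in Affymetrix Power Tools, per the submitters' processing notes; the version and genome build are not given in the sources used here. RMA brings the probe signals of all arrays to 1 distribution, so it cannot show a change in total RNA per cell, and arrays have no read depth, so their number limits the precision.

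Of 70523 rows, 67528 transcript clusters were kept, and 32540 with a log2 signal over 4 on at least 3 arrays were tested. Symbols came from the platform annotation, updated by Entrez identifier to RefSeq names for 21497 of 23781 clusters with 1 symbol. The test was that of limma 3.58.1, run in R 4.3.3 (lmFit and eBayes, two-sided, 6.91 degrees of freedom). Benjamini-Hochberg adjustment ran over all tested clusters, with a threshold of 0.05. The code was also run on simulated data, with normal noise drawn from the variances that limma itself estimated. That run checks the code and cannot show that the assumptions of the test hold for these arrays. Adjusted p-values are from this limma fit unless an alternative is named. Values on each array were given for called members, for the next ones by p, and for the main drug and lipid pumps; of other lists, called genes and up to 3 with the smallest unadjusted p under 0.05 were named, and further genes were chosen after their values were seen. The members and lists were chosen with earlier results of these data known.

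Alternatives were no filter, a filter at 6, a robust fit with an intensity trend, an unmoderated statistic, array weights, averaged clusters, quantile normalization, the replicate number as a block, median centring and leaving out each array. A fit on genes with 1 symbol was added after seeing the data. Promoters were searched with Python 3.11.15 and pandas 2.3.3.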

Additional observations from a re-analysis of the deposited data

How the results depend on the processing

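ABC transporter calls stayed at 2 under median centring, array weights, quantile normalization, a robust fit with an intensity trend, averaged clusters and the fit on genes with 1 symbol, each time ABCA1 and ABCC3. They were 2 with a filter at 6, as ABCC3 and ABCC4, since ABCA1 was then not tested. They came to 0 with no filter and with an unmoderated statistic (5 at an unadjusted p under 0.05 in each), and to between 0 and 1 when 1 array was left out (3 to 4 at that unadjusted p). With the replicate number as a block, limma called 0 (3 at that unadjusted p), with ABCA1 at 0.44 (adjusted p = 0.14) and ABCC3 at -0.46 (0.15); same-numbered arrays did not deviate together (correlations of -0.27, -0.16 and -0.08), 0 of 6 correlated best with their own number, and the numbers were not taken as pairs. Over the whole array, calls were 51 with the replicate block, 238 with no filter, 1102 with the filter at 6, 965 with the trend, 169 unmoderated and 955 over genes with 1 symbol, against 613, and 129 to 411 with an array left out. In the related lists, against 1 call, there were 0 with the replicate block, 7 with the filter at 6, 3 with quantile normalization, 4 with the trend, 2 unmoderated, 2 with array weights and 9 over genes with 1 symbol. The count there stayed at 1 with each array left out, with no filter and with median centring. The filter at 6 and the fit on genes with 1 symbol test fewer clusters; the causes were otherwise not tested. The share of lower among all calls was 79.6%, 71.6% with quantile normalization and 85.0% with median centring. Among 404 changes of single members under alternatives, 386 stayed on their side of the threshold, 17 lost a call, 1 gained one and no called change turned its sign; 24 uncalled ones changed sign.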
